A study of Mus musculus with 8 samples.

Results

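The 39 genes described here encode enzymes and carriers of fatty acid oxidation and ketone body metabolism in mouse liver. They were chosen by name, as a list of mitochondrial and peroxisomal β-oxidation, carnitine shuttle and ketogenesis genes, by a rule that uses no measured value, although earlier results of these data were known when the list was made. All 39 were found among the 45706 gene identifiers of the deposited counts, and 38 of them passed the filter on low counts and were among the 15491 genes tested. The 8 livers came from male C57BL/6J mice, 4 with the title *Srsf10-kd* (genotype label Srsf10KD) and 4 with the title *Ctrl* (genotype label WT). At 6 weeks of age each mouse received, by the tail vein, an AAV2/8 carrying GFP and a mirE/shRNA under the chicken β-actin promoter, which is active in many cell types. The mirE/shRNA was directed to *Srsf10* in AAV-*Srsf10-kd* and was a control in AAV-*Ctrl*. From 4 weeks after injection both groups ate a high fat diet (HFD) with 60% of calories from fat, for 12 weeks, so that virus and diet were shared and neither group stands for an untreated liver. The comparison asks how RNA of the fatty acid oxidation pathway differed between the livers of these mice.

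Fatty acids are broken down in liver along parallel routes. Long-chain acyl groups enter mitochondria as carnitine esters, and each turn of mitochondrial β-oxidation then runs through a dehydrogenase, a hydratase, a second dehydrogenase and a thiolase. Peroxisomes shorten very long and branched chains and pass the products on to mitochondria. In fasted liver the acetyl-CoA that results is turned into ketone bodies for other organs. Many of these genes are textbook targets of PPARα, a nuclear receptor that is activated by fatty acids.

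Between 50456404 and 59697241 reads were counted on genes per liver, of which 4.77% to 6.39% were mitochondrial. Levels are in CPM, which relates each count to the size of its library after edgeR's correction for composition, and fold changes are *Srsf10-kd* over *Ctrl* on the log2 scale. *Srsf10* itself, the gene targeted, ran from 34.0 to 41.0 CPM under the *Srsf10-kd* label and from 30.9 to 35.3 CPM under the *Ctrl* label. The log2 fold change was 0.15 (SE 0.10, adjusted p = 0.378), so its total count in these libraries was not lower under the label, and every comparison here is one of labelled groups. Hepatocyte markers summed to 75710 to 109700 CPM in the 8 livers, of which *Alb* alone gave 45844 to 83145 CPM. In bulk liver RNA, fewer cells of a type and less RNA per cell cannot be told apart.

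None of the 38 tested genes of fatty acid oxidation passed the edgeR test at an adjusted p under 0.05. Over all tested genes the same test called 11 (0.071%), all of them lower. DESeq2 also called 0 of the 38 (5.21% of all genes it adjusted), and limma-voom, which here gave each sample a quality weight, called 2, *Acox3* and *Hacl1* (11.7% of all tested genes). At an unadjusted p under 0.05, edgeR listed 2 of the 38, *Acox3* and *Hadha*, against 21.8% of all genes. DESeq2, run without the low-count filter and read over all 39 genes, listed 5. Its share was 14.4% of 26548 genes with a p, many of them too low to pass that filter, so the shares of the tools are not alike. The lowest adjusted p among the 38 from edgeR was 0.2085. Of the fold changes, 20 were below 0 and 18 above it (48.7% of all genes were below 0), and their median was -0.02, beside 0.01 over all tested genes. The 4 livers of one group did not overlap those of the other in 2 of the 38 genes, *Hadha* and *Abcd3*, both lower under the *Srsf10-kd* label, against 14.3% of all genes.

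These values bound the differences as well as missing the threshold. The standard errors ran from 0.09 to 0.55 on the log2 scale with a median of 0.14. Over all tested genes, not matched for level, the median was 0.18. The 95% interval of the fold change lay within 1 on the log2 scale in either direction for 35 of the 38 genes and within 0.5 for 22. It excluded 0 for 2, *Acox3* and *Hadha*, before any adjustment. The median width of the interval was 0.617. The genes whose intervals were widest were *Ehhadh*, *Cpt1a* and *Crat*, and these also differed most from liver to liver within a group.

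**Figure D1:**
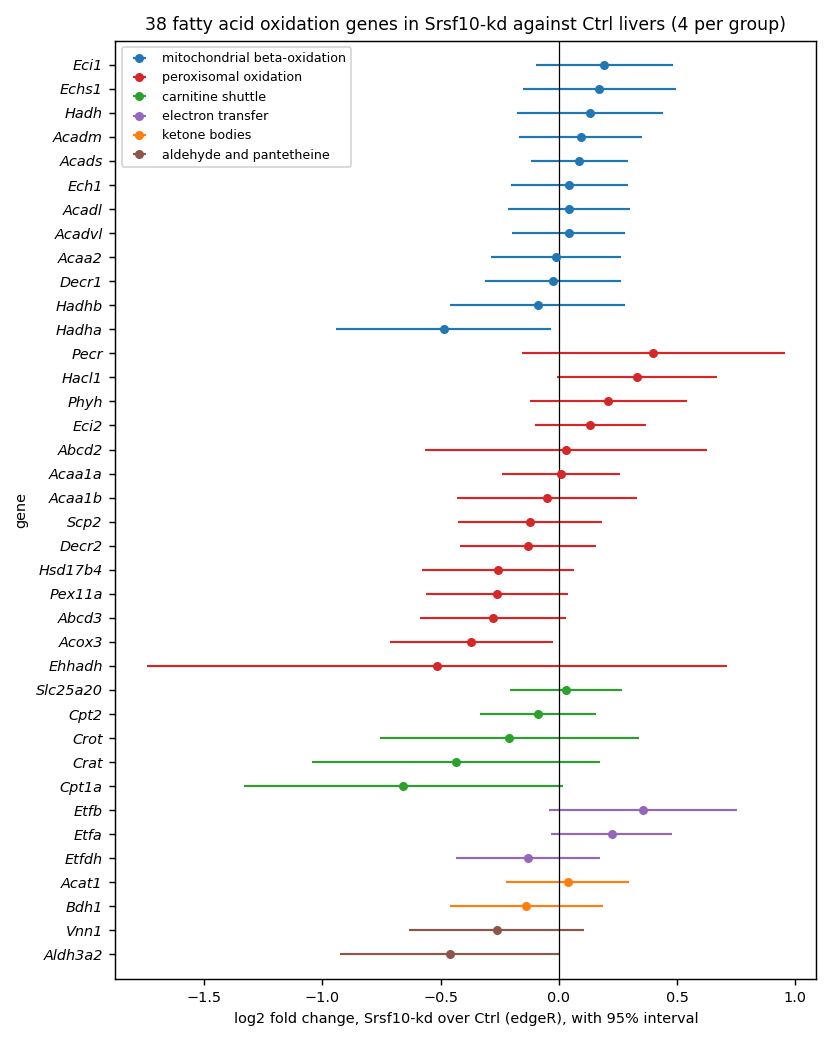
Each point is the log2 fold change of 1 gene (*Srsf10-kd* over *Ctrl*, 4 livers each, edgeR) and each line its 95% interval before adjustment for the number of genes, coloured by role. The intervals of *Hadha* and *Acox3* lie below 0, and *Ehhadh* has the widest, from -1.74 to 0.71.

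Levels were compared between genes per kilobase of the longest coding transcript. *Acaa1b*, a peroxisomal thiolase, had the highest mean at 1897 CPM per kb, followed by *Phyh* at 1608, which starts the α-oxidation of phytanic acid, and *Scp2* at 1581, which encodes a peroxisomal thiolase and a sterol carrier protein from 1 locus. These were followed by *Acaa2*, the mitochondrial thiolase, at 769 CPM per kb and *Ehhadh*, the peroxisomal bifunctional enzyme, at 645. *Abcd2* at 8.83 and *Acox3* at 6.36 CPM per kb were at the bottom of the order. The range over the 8 livers overlapped that of the next gene in 34 of 37 neighbouring pairs, so that the order is loose. The breaks were below *Scp2*, below *Vnn1* and below *Crat*. *Eci3*, a peroxisomal enoyl-CoA isomerase, was the gene that failed the filter, with 5, 27, 4 and 5 counts in the *Srsf10-kd* livers and 5, 3, 3 and 3 in the *Ctrl* livers. Only *Srsf10-kd* 2 had more than 5 counts of it.

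The carnitine shuttle brings long chains into mitochondria. *Cpt1a*, the outer membrane transferase at its entry, had the fold change furthest from 0 of the 38 genes. It stood at 724, 537, 286 and 678 CPM in the *Srsf10-kd* livers and at 793, 794, 624 and 1299 CPM in the *Ctrl* livers. The groups overlapped, with *Ctrl* 3 below *Srsf10-kd* 1 and *Srsf10-kd* 4, and *Srsf10-kd* 3 and *Ctrl* 4 each stood apart from the rest of their group. The means were 556 ± 197 and 877 ± 292 CPM (SD, n = 4), a log2 fold change of -0.66 (SE 0.30, 95% interval -1.33 to 0.02, adjusted p = 0.237). It was -0.44 with *Srsf10-kd* 3 left out and -0.41 with *Ctrl* 4 left out. *Crat*, which transfers acetyl and other short groups to carnitine, stood at 169, 133, 63.3 and 169 CPM in the *Srsf10-kd* livers and at 174, 181, 147 and 220 CPM in the *Ctrl* livers. The groups overlapped through *Ctrl* 3. Its fold change on the log2 scale was -0.43 (SE 0.27, adjusted p = 0.351) and -0.20 without *Srsf10-kd* 3. *Crot* moves medium chains out of peroxisomes as carnitine esters. It stood at 2143, 1590, 906 and 2153 CPM against 1718, 1941, 2039 and 2156 CPM, so that *Srsf10-kd* 1 and 4 were at the upper end of the *Ctrl* range and the other *Srsf10-kd* livers were below it. Its log2 fold change was -0.21, and 0.00084 without *Srsf10-kd* 3. *Cpt2*, the inner membrane transferase, and *Slc25a20*, the carnitine-acylcarnitine translocase, differed little from liver to liver, with log2 fold changes of -0.09 (95% interval -0.33 to 0.16) and 0.03 (-0.21 to 0.27). In the shuttle, 4 of 5 genes were therefore lowest in *Srsf10-kd* 3, the exception being *Slc25a20*.

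Of the 12 mitochondrial β-oxidation genes, 8 had a fold change above 0 and 4 below, with a median of 0.04. *Hadha* encodes the α subunit of the trifunctional protein, which carries the hydratase and dehydrogenase steps for long chains. It stood at 632, 512, 322 and 617 CPM in the *Srsf10-kd* livers and at 646, 663, 794 and 817 CPM in the *Ctrl* livers. Every *Srsf10-kd* liver was below every *Ctrl* liver, though *Srsf10-kd* 1 and *Ctrl* 1 were close. The means were 521 ± 143 and 730 ± 88.1 CPM (SD, n = 4), a log2 fold change of -0.49 (SE 0.20, adjusted p = 0.210, exact permutation p = 0.0286, the smallest that 70 assignments of the livers can give). It was -0.31 with *Srsf10-kd* 3 left out, -0.24 with limma-voom and -0.27 in 6 livers without *Srsf10-kd* 3 and *Ctrl* 3. *Hadhb*, which encodes the thiolase subunit of the same protein, was added to the genes given in full because it is the partner of *Hadha*, after its values were seen. It stood at 329, 230, 220 and 333 CPM against 269, 269, 313 and 333 CPM. Its groups overlapped and its log2 fold change was -0.09 (SE 0.17, 95% interval -0.46 to 0.28). The ratio of *Hadha* to *Hadhb* CPM was 1.92, 2.23, 1.46 and 1.85 in the *Srsf10-kd* livers and 2.41, 2.47, 2.54 and 2.45 in the *Ctrl* livers. It was lower in all 4 *Srsf10-kd* livers, a description of genes picked with their values known and therefore without a test. The coding transcripts differ in length, 4017 bases for *Hadha* and 2048 for *Hadhb*, and fold changes went with length in these libraries. *Hadhb* also shares 16.7% of its 75-base stretches with other transcripts.

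*Hadha* and *Hadhb* are neighbours on chromosome 5 and are transcribed away from each other, with RefSeq starts at 30154980 and 30155253 and 272 bases between them. The stretch between their annotated exons is shown because it lies between the starts of both subunits (RefSeq window on GRCm38.p6, chr5:30155163-30155247, plus strand, 85 bases, 69.4% G and C). Capitals mark GC boxes (GGGCGG on either strand).

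Hadha-Hadhb: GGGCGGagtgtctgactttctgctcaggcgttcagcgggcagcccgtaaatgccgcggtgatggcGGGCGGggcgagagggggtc

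The other mitochondrial genes were steadier. *Acadvl*, *Acadl*, *Acadm* and *Acads* encode the acyl-CoA dehydrogenases for chains from very long to short, and their log2 fold changes were 0.04, 0.04, 0.09 and 0.09. *Acads* varied least of the 38 genes, from 196 to 226 CPM over the 8 livers, and its 95% interval was -0.12 to 0.29. *Echs1*, the short-chain hydratase, was at 0.17, and *Hadh*, the dehydrogenase of medium and short chains, at 0.13. *Eci1*, *Decr1* and *Ech1*, auxiliary enzymes that handle double bonds of unsaturated chains, were at 0.19, -0.02 and 0.05. *Acaa2* was at -0.01, with 1163, 1081, 1184 and 1214 CPM against 1152, 1130, 1371 and 1024 CPM, and its interval was -0.29 to 0.26.

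The 14 tested peroxisomal genes split into 6 above 0 and 8 below, with a median of -0.09. *Ehhadh* had the largest spread of all 38. It stood at 2439, 923, 397 and 2576 CPM in the *Srsf10-kd* livers and at 1018, 1903, 2680 and 3451 CPM in the *Ctrl* livers, an 8.69-fold range. *Srsf10-kd* 1 and 4 lay among the higher *Ctrl* livers, whereas *Srsf10-kd* 2 and 3 lay below the lowest *Ctrl* liver. The log2 fold change was -0.51 (SE 0.55, 95% interval -1.74 to 0.71, adjusted p = 0.576). It ran from -0.85 to -0.19 with 1 liver left out and was 0.11 with limma-voom, so that a change of either sign could not be resolved with 4 livers a group. *Ehhadh* lies on the minus strand of chromosome 16 from 21761287 to 21787807 (GENCODE M21, GRCm38).

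The sequences before the RefSeq starts of *Ehhadh* and *Cpt1a*, the genes with the most variable levels, are shown (GRCm38.p6, chr16:21787835-21788084, minus strand, and chr19:3323051-3323284, plus strand). They hold no annotated exon, although the annotation of *Cpt1a* opens further upstream, at 3322334. Capitals mark CCAAT boxes (CCAAT), GC boxes (GGGCGG) and nuclear receptor half-sites (AGGTCA), each on either strand.

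Ehhadh: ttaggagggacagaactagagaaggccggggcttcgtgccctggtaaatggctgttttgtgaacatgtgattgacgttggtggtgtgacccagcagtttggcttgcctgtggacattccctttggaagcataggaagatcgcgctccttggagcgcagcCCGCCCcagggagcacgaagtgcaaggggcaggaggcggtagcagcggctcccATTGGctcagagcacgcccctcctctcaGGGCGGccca

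Cpt1a: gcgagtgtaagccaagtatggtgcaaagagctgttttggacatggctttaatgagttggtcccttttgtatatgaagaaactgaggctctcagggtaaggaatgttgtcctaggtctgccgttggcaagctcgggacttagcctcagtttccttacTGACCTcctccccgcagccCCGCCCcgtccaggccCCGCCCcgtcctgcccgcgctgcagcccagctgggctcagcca

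The *Ehhadh* stretch held 1 CCAAT box and GC boxes on both strands, and the *Cpt1a* stretch a half-site and a pair of GC boxes on the minus strand. Windows of 250 bases before to 50 after the start were listed by RefSeq for 32 of the 39 genes. None held AGGNCANAGGNCA on either strand, the letters used here for a PPAR and RXR direct repeat. Of all 32851 windows 0.381% held it, and of those of tested genes 0.275%. The half-site AGGTCA was in the windows of 6 genes, *Acadm*, *Acadvl*, *Cpt1a*, *Echs1*, *Phyh* and *Scp2* (18.8%, beside 16.3% of all windows and 13.2% of those of tested genes). Shares of the list count genes with a match, whereas the other shares count windows. The CCAAT box was in 13 (40.6%, beside 37.4%), and GGGCGG in 26 (81.2%, beside 35.7% of all windows and 58.7% of those of tested genes). TATAAA was in none, beside 13.6% of all windows and 8.13% of those of tested genes. These matches describe the letters of the windows only.

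Among the transporters of the peroxisomal membrane, *Abcd3*, which imports branched and long-chain acyl-CoA, stood at 936, 868, 646 and 927 CPM in the *Srsf10-kd* livers and at 968, 1005, 1089 and 1035 CPM in the *Ctrl* livers. Every *Srsf10-kd* liver was below every *Ctrl* liver. The log2 fold change was -0.28 (SE 0.14, adjusted p = 0.262, exact permutation p = 0.0286), and -0.17 with *Srsf10-kd* 3 left out. *Abcd2*, a related transporter of very long chains, stood at 52.8, 59.1, 32.8 and 52.9 CPM against 45.7, 73.7, 44.8 and 29.2 CPM, and its log2 fold change was 0.03 (95% interval -0.57 to 0.63). *Pex11a*, which takes part in peroxisome division, was at -0.26 (-0.56 to 0.04).

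The oxidases and thiolases of peroxisomes gave mixed signs. *Acox3*, the oxidase of branched chains, was the least abundant tested gene per kilobase. It stood at 22.8, 27.4, 17.2 and 20.8 CPM in the *Srsf10-kd* livers and at 32.9, 29.5, 23.9 and 27.9 CPM in the *Ctrl* livers. *Srsf10-kd* 2 lay within the *Ctrl* range and the other livers of its group were below it. The log2 fold change was -0.37 (SE 0.15, edgeR adjusted p = 0.2085, limma-voom -0.40 with an adjusted p of 0.0425). *Hsd17b4*, the other bifunctional enzyme, was at -0.26, and *Decr2*, a reductase for unsaturated chains, at -0.13. *Acaa1b* stood at 3263, 2816, 2528 and 3984 CPM against 2786, 3192, 3812 and 3251 CPM, with a fold change of -0.05 and an interval of -0.43 to 0.33, and its near copy *Acaa1a* was at 0.01. As 32.3% of the 75-base stretches of *Acaa1b* occur in other transcripts, 24.4% in *Acaa1a*, the counts of both genes are less certain. *Scp2* was at -0.12, with 25.6% of its stretches in the pseudogene *Scp2-ps2*.

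A few peroxisomal genes lay on the other side of 0. *Hacl1*, the lyase that cuts 2-hydroxy acids during α-oxidation, stood at 507, 438, 304 and 404 CPM in the *Srsf10-kd* livers and at 355, 318, 316 and 323 CPM in the *Ctrl* livers. *Srsf10-kd* 1, 2 and 4 were above all *Ctrl* livers and *Srsf10-kd* 3 below all of them. The log2 fold change was 0.33 (SE 0.15, edgeR adjusted p = 0.237, limma-voom 0.41 with an adjusted p of 0.0396), and 0.45 with *Srsf10-kd* 3 and 0.22 with *Srsf10-kd* 1 left out. Of its stretches, 26.3% also occur in other transcripts, mainly *Gm49387*. *Phyh*, which acts before *Hacl1* in the same route, stood at 2513, 2088, 3046 and 2270 CPM against 2146, 1884, 2158 and 2389 CPM, a log2 fold change of 0.21 (95% interval -0.12 to 0.54), and 0.097 with *Srsf10-kd* 3 left out. *Pecr*, a peroxisomal trans-2-enoyl-CoA reductase of chain elongation, stood at 141, 231, 287 and 156 CPM against 170, 174, 172 and 102 CPM. The extremes were *Srsf10-kd* 3 and *Ctrl* 4, and the log2 fold change was 0.40 (SE 0.25, adjusted p = 0.345). It was 0.19 with *Srsf10-kd* 3 and 0.24 with *Ctrl* 4 left out. *Eci2*, an enoyl-CoA isomerase, was at 0.13.

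**Figure D2:**
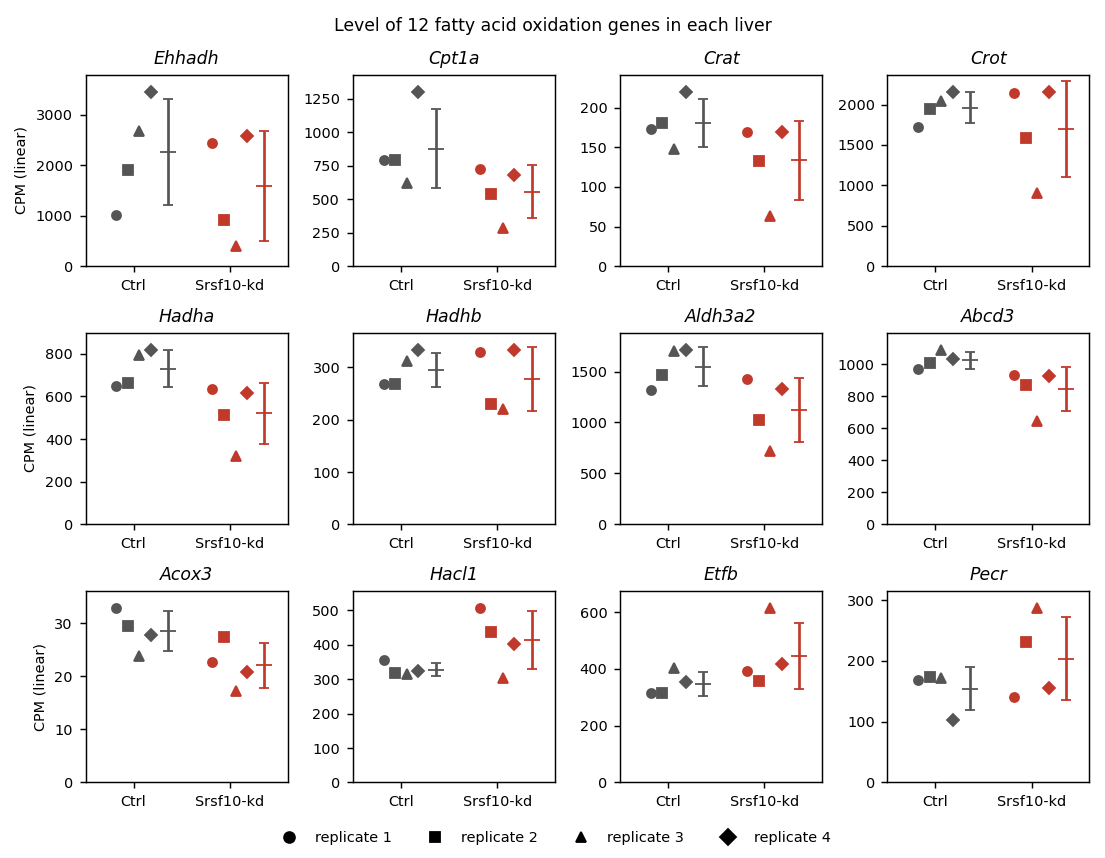
CPM on a linear axis of 12 of the genes in each of the 8 livers, with the mean and SD of each group (n = 4) beside the points and the marker shape giving the replicate number. *Srsf10-kd* 3 is the lowest liver for *Ehhadh*, *Cpt1a*, *Crat*, *Crot*, *Hadha*, *Hadhb*, *Aldh3a2*, *Abcd3*, *Acox3* and *Hacl1*, and the highest for *Etfb* and *Pecr*.

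The electron transfer genes pass electrons from the dehydrogenases to the respiratory chain. *Etfa* and *Etfb* encode the subunits of the electron transfer flavoprotein. *Etfa* stood at 424, 428, 509 and 449 CPM against 375, 402, 426 and 347 CPM, a log2 fold change of 0.22 (SE 0.11, adjusted p = 0.270). *Etfb* stood at 393, 356, 614 and 418 CPM against 316, 316, 405 and 354 CPM, a log2 fold change of 0.36 (SE 0.18, adjusted p = 0.262), and 0.16 with *Srsf10-kd* 3 left out. In both genes *Srsf10-kd* 3 was the highest liver and the groups overlapped. *Etfb* has the shortest transcript of the 38 genes, 893 bases, and shares 39.6% of its stretches with *Gm45233*, which overlaps it. *Etfdh*, the dehydrogenase that takes electrons from the flavoprotein, was at -0.13 (95% interval -0.44 to 0.18).

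The ketone body genes of the list differed little. *Bdh1*, which interconverts acetoacetate and 3-hydroxybutyrate, had a log2 fold change of -0.14 (95% interval -0.46 to 0.18), and *Acat1*, the acetoacetyl-CoA thiolase, 0.04 (-0.22 to 0.30). *Aldh3a2*, which oxidizes long-chain fatty aldehydes, stood at 1425, 1022, 721 and 1324 CPM in the *Srsf10-kd* livers and at 1316, 1462, 1701 and 1710 CPM in the *Ctrl* livers. *Ctrl* 1 lay below *Srsf10-kd* 1 and 4, and the log2 fold change was -0.46 (SE 0.21, adjusted p = 0.230). It was -0.30 with *Srsf10-kd* 3 left out, -0.22 with limma-voom and -0.25 in the 6 livers. *Vnn1*, the pantetheinase that releases cysteamine in the breakdown of pantetheine, was at -0.26 (95% interval -0.63 to 0.11).

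A single liver gave many of the extremes. *Srsf10-kd* 3 was the lowest of the 8 livers in 17 of the 38 genes and the highest in 9, and over all tested genes it was the lowest in 26.9% and the highest in 29.8%. In 13 of the 17 genes *Srsf10-kd* 2 was the second lowest. *Ehhadh*, *Cpt1a*, *Crat*, *Crot*, *Hadha* and *Aldh3a2* were among the 17, and *Etfb*, *Pecr*, *Phyh*, *Echs1* and *Etfa* among the 9. *Ctrl* 4 was the lowest in 9 genes and the highest in 10, against 20% and 21.2% of all genes. For *Ctrl* 3 the numbers were 2 and 10, against 14.6% and 12.6% of all genes. *Srsf10-kd* 3 also had the highest summed level of 4 marker lists. Adipocyte markers summed to 1.098 to 31.84 CPM in the *Srsf10-kd* livers and 0.6495 to 11.54 CPM in *Ctrl*, erythroid markers to 293.8 to 799.7 and 291.5 to 380 CPM, cholangiocyte markers to 46.51 to 68.55 and 31.41 to 39.08 CPM, and stellate cell markers to 169.4 to 290.1 and 189.7 to 211.5 CPM. The adipocyte sum of *Srsf10-kd* 3 was almost all *Cfd* (31.5 CPM). *Adipoq* and *Plin1* were at 0.233 and 0.0389 CPM there and were highest in *Srsf10-kd* 4, at 2.21 and 1.07 CPM. Its stellate sum was mostly *Dcn* (214 CPM), and every other stellate marker was highest in another liver. Its cholangiocyte sum was mostly *Spp1* (44.7 CPM). *Spp1* and *Sox9* were highest in *Srsf10-kd* 3, whereas *Krt7*, *Krt19* and *Epcam* were highest in other livers. Each erythroid marker was highest in *Srsf10-kd* 3. Of the 48 tested markers of all lists, 0 passed the edgeR test at an adjusted p under 0.05 (0.071% of all genes). At an unadjusted p under 0.05 edgeR listed 13, against 21.8% of all genes. These were 3 of 5 cholangiocyte and 3 of 5 erythroid markers, all higher under the *Srsf10-kd* label, and 1 of 5 lymphocyte markers, *Cd79a*, also higher. The rest were 4 of 6 endothelial markers, 2 higher and 2 lower, and 2 of 8 hepatocyte markers, *Apob* and *Hnf4a*, both lower. Of the 8 hepatocyte markers 6 had a fold change below 0 and 2 above. The part of other cell types in the values of the fatty acid oxidation genes was not tested. The limma-voom weights were 0.232 for *Srsf10-kd* 3, 0.401 for *Ctrl* 3 and 0.762 to 2.38 for the others.

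**Figure D3:**
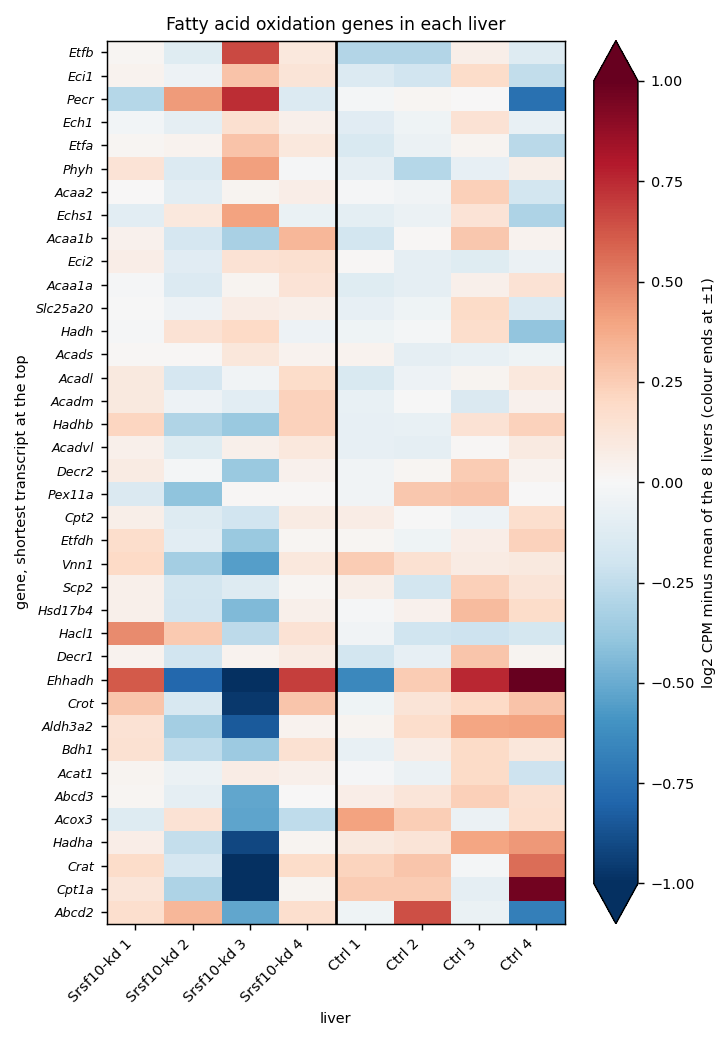
Colour gives log2 CPM minus the mean of the 8 livers for each tested gene, blue below and red above, with the shortest transcript at the top. *Srsf10-kd* 3 is red for short transcripts such as *Etfb* and *Pecr* and blue for long ones such as *Hadha*, *Crat* and *Cpt1a*.

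The extremes of *Srsf10-kd* 3 followed transcript length. The 9 genes highest there had a median length of 1392 bases (893 to 1870), the 17 genes lowest there 2981 (1689 to 4317), and all 38 genes 2232.5, beside 2873 over all tested genes with a length. Across the 38 genes, deviation from the 8-liver mean and length had a Spearman rho of -0.824 in this liver, and across all genes it was -0.470. In *Ctrl* 1, *Ctrl* 2 and *Ctrl* 4 the trend had the other sign. Their rho was 0.549, 0.621 and 0.579 across the 38 genes and 0.416, 0.477 and 0.432 across all genes. The trend did not divide cleanly by group. Across the 38 genes and across all genes, rho was 0.477 and -0.13 in *Srsf10-kd* 1 and -0.321 and -0.0984 in *Srsf10-kd* 2. It was 0.015 and -0.341 in *Srsf10-kd* 4 and 0.141 and -0.112 in *Ctrl* 3. For the fold change between the groups, rho with length was -0.749 across the 38 genes and -0.533 across 15429 genes. These are descriptions across genes measured in the same libraries, not across independent samples. After removal of the length trend within every library, the median fold change of the 38 genes was -0.14 in place of -0.02, with 32 below 0 and 6 above it in place of 20 and 18, and all genes had a median of 0.0036. Of all genes 49.4% were then below 0. The 12 mitochondrial genes lay between -0.39 and -0.0024, several of them close to 0, with *Hadh* at -0.0024, *Acadm* at -0.0038, *Echs1* at -0.0098 and *Decr1* at -0.012. *Hadha* was at -0.39, *Hadhb* at -0.18, *Etfb* at 0.03, *Etfa* at 0.02, *Cpt1a* at -0.53, *Ehhadh* at -0.51 and *Hacl1* at 0.33. After this step 0 of the 38 passed the edgeR test, against 8 of all genes (0.0516%), and 3 had an unadjusted p under 0.05, against 15% of all genes. The split of the 38 also moved to 12 below 0 with limma-voom and to 14 below 0 in the 6 livers, and it was 18 below 0 with *Srsf10-kd* 3 alone left out.

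The spread between livers otherwise was small. The highest liver was under 1.5-fold above the lowest in 16 of the 38 genes and over 2-fold in 8, *Ehhadh*, *Cpt1a*, *Crat*, *Pecr*, *Hadha*, *Abcd2*, *Crot* and *Aldh3a2*. Within the *Srsf10-kd* group alone it was over 2-fold in 5 genes and within *Ctrl* in 3, *Ehhadh*, *Cpt1a* and *Abcd2*. The median SD of log2 CPM was 0.208 for the 38 genes and 0.289 for all tested genes. Of all genes 70.5% had an SD above that of the median fatty acid oxidation gene. The 38 genes had means of 25.29 to 4173 CPM over the 8 livers, and they were not compared with genes of like level.

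Of 36 further fatty acid oxidation and ketone body genes, 34 were tested and 0 passed the test in edgeR, DESeq2 or limma-voom, with 2 higher and 1 lower at an unadjusted p under 0.05 in edgeR, against 21.8% of all genes. The named ones were *Nudt19* (0.32), a peroxisomal CoA diphosphatase, *Sirt5* (0.29), a mitochondrial desuccinylase, *Acad11* (-0.33), an acyl-CoA dehydrogenase, and *Acox2* (-0.26), an oxidase of bile acid intermediates. Among 19 regulators and partners of PPARα, 2 passed in edgeR and both were lower, *Ppara* and the corepressor *Lcor*, against 0.071% of all genes. DESeq2 called 4 of them, against 5.21% of all genes it adjusted, and limma-voom 7, against 11.7% of all tested genes. In edgeR 7 were lower at an unadjusted p under 0.05 and 0 higher, against 10.6% and 11.2% of all genes. Each of the 7 moved towards 0 once the length trend was removed, by unlike amounts. *Med1* went from -0.33 to -0.03, *Nrip1* from -0.48 to -0.19 and *Ncoa2* from -0.45 to -0.15. *Rxra* went from -0.48 to -0.31, *Lpin2* from -0.70 to -0.485 and *Ppara* from -1.24 to -1.18. *Lcor* had a log2 fold change of -1.64 (SE 0.19, adjusted p = 0.0195) at 2.44 to 2.82 CPM in the *Srsf10-kd* livers, and -1.48 with an adjusted p of 0.0548 once the length trend was removed.

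*Ppara* was set beside 3 of its textbook targets. It stood at 88.4, 84.6, 77.8 and 82.3 CPM in the *Srsf10-kd* livers and at 177, 208, 168 and 234 CPM in the *Ctrl* livers, a log2 fold change of -1.24 (SE 0.13, adjusted p = 0.0166). The groups were far apart for *Ppara* and overlapped for *Ehhadh*, *Cpt1a* and *Pex11a*. These 3 genes were picked from the list and do not stand for the rest. In 2 of the 38 genes, *Hadha* and *Abcd3*, the groups did not overlap, against 14.3% of all genes. The *Srsf10-kd* livers lay within a narrow range of *Ppara*, 77.8 to 88.4 CPM, while *Ehhadh* ran from 397 to 2576 CPM in them and *Cpt1a* from 286 to 724 CPM. In the *Ctrl* livers *Ctrl* 4 had the highest level of *Ppara*, *Ehhadh* and *Cpt1a*, whereas its *Pex11a*, at 348 CPM, was below that of *Ctrl* 2 and *Ctrl* 3. A relation across livers within the groups was not tested.

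**Figure D4:**
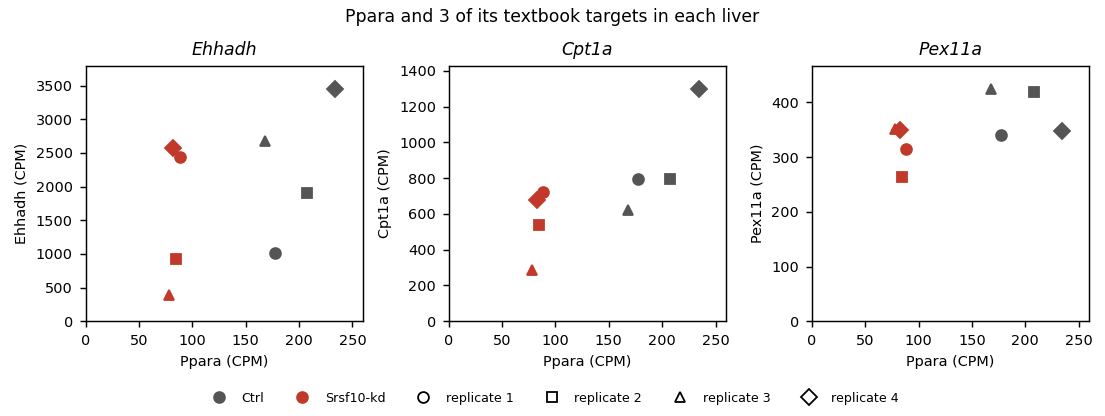
CPM of *Ehhadh*, *Cpt1a* and *Pex11a* against CPM of *Ppara* on linear axes, 1 point per liver, red for *Srsf10-kd* and grey for *Ctrl*, with the marker shape giving the replicate number. The groups are separate along *Ppara* and overlap along the other axis for each gene shown.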

How the data were processed

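Poly(A) RNA of 8 livers was sequenced from directional libraries, with 75 bases read from each end. Reads were aligned by the authors to GRCm38 with STAR 2.7.7a, and raw counts per gene were deposited for each liver, without normalization. The strand column, the annotation release and read filters are not given in the sources used here, so genes with overlapping exons are uncertain.

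Counts were analysed in R 4.3.3 with edgeR 4.0.16 (TMM normalization, filterByExpr, two-sided quasi-likelihood test on condition alone, Benjamini-Hochberg adjusted p under 0.05 over 15491 genes). Alternatives were DESeq2 1.42.0, the study's own tool, limma-voom 3.58.1 with sample quality weights, other size factors and filters, the replicate number as a block, removal of each library's lowess trend (span 0.5) on transcript length, and each liver left out in turn. Leaving out *Srsf10-kd* 3 and *Ctrl* 3 together was added after seeing the data. Log2 CPM used a prior count of 2. For single genes all 70 assignments of the livers gave a two-sided exact permutation p. The model fits were tested on simulated counts.

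Positions and transcript lengths come from GENCODE M21, and promoter windows from RefSeq on GRCm38.p6. Over the 28 pairs of libraries, chi-square per degree of freedom was at least 34.2, so none was a copy of another library. The statistic cannot tell whether libraries came from different animals. The labels do not tie livers to animals, so p-values measure the spread between these samples.

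The genes given in full were up to 8 with the smallest p, 6 with the largest fold change, 5 with the highest level per length, 5 with the largest spread and 4 with the largest shared stretches, those past the threshold in any tool, and those failing the filter. *Crot* and *Hadhb* were added after their values were seen. *Pex11a* was set beside *Ppara* outside this rule. From the other pathway lists, genes past the threshold were named, otherwise up to 4 with the smallest p. A further list of genes was tested in the same fit and is not reported here. The genes, the pathway and marker lists and the tests were chosen with earlier results of these data known.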

Additional observations from a re-analysis of the deposited data

Results flagged for a closer look

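*Pecr* in *Ctrl* 4 stood at 102.4 CPM, while the other *Ctrl* livers were at 169.5 to 174.1 CPM. The gap took 0.936 of the range of the group, more than the limit set for a lone extreme among 4 values. Over 78 groups of 4 livers examined, 76 of them for the fatty acid oxidation genes, this was the only such case, and chance alone gives about 3.9.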

How the results depend on the processing

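The count of fatty acid oxidation genes past the threshold was 0 in edgeR under every normalization, filter, block, length and left-out-liver setting run and in DESeq2, and 2 with limma-voom. The number of all genes called was far less stable, 11 in the fit reported, 819 with DESeq2, 1814 with limma-voom, 46 with no filter on low counts, 1342 in 6 livers without *Srsf10-kd* 3 and *Ctrl* 3, and 0 to 544 with 1 liver left out. It was 64 when *Srsf10-kd* 3 was left out and 544 when *Ctrl* 3 was. Leaving out *Ctrl* 1 or *Ctrl* 4 gave 4 and 5, and leaving out *Ctrl* 2 or any of *Srsf10-kd* 1, 2 and 4 gave 0, with 2154 to 3656 at an unadjusted p under 0.05. The median fold change of the 38 genes was -0.14 with the length trend removed and -0.06 to 0.03 with 1 liver left out, beside a between-liver SD of 0.0927. The cause of these differences was not tested.

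The replicate numbers were not taken to pair the livers, which the values leave unsettled. Deviations of same-numbered livers correlated at -0.176, 0.213, 0.265 and 0.217 over genes, and nothing in the labels ties the numbers to a shared day or litter. With the replicate block, 59 genes and 0 of the 38 were called, and the block with the length trend removed called 0 genes, with 2646 at an unadjusted p under 0.05, and gave the 38 a median of -0.14.

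Some fold changes turned sign. All settings were followed for the tested genes given in full other than *Crot*, and for *Ppara*, *Lcor* and *Srsf10*. With limma-voom *Ehhadh*, at -0.51 in the fit reported, was at 0.11, *Acaa1b* at 0.12, *Scp2* at 0.013, *Acaa2* at 0.036, *Hadhb* at 0.10 and *Abcd2* at -0.0061. In the 6 livers *Acaa1b* was at 0.13, *Acaa2* at 0.065 and *Hadhb* at 0.037. With the length trend removed *Phyh* was at -0.0014. With 1 liver left out the ranges were -0.18 to 0.043 for *Acaa1b*, -0.071 to 0.073 for *Acaa2*, -0.15 to 0.31 for *Abcd2* and -0.19 to 0.0099 for *Hadhb*. When *Srsf10-kd* 1, 2 or 4 was left out, the edgeR adjusted p of *Ppara* was 0.0823, 0.0537 and 0.0969, with *Ctrl* 2 left out it was 0.106, and with the block and the length trend removed 0.0517, at fold changes of -1.31 to -1.15 with 1 liver left out. *Lcor* also missed the threshold in these settings, at adjusted p of 0.0824, 0.0569, 0.106, 0.120 and 0.0517, and with the length trend alone removed at 0.0548. The other 327 values of the genes followed, apart from the calls of *Acox3* and *Hacl1* by limma-voom, kept their direction and side of the threshold. Genes of the list that were not followed in this way also turned sign. *Eci1*, *Ech1*, *Eci2*, *Acadl* and *Acadvl* were among those that fell below 0 with the length trend removed. *Crot*, *Etfdh* and *Bdh1* were among those that rose above 0 with limma-voom.

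With 4 livers a group, differences near the standard errors could not be resolved, and for *Ehhadh*, *Cpt1a* and *Crat* the intervals were too wide to bound the difference within 1 on the log2 scale.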
